A study of Zea mays with 4 samples.

Results

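The data are transcript levels of 10 maize genes that cleave sucrose or act on its fructose, measured in the central starchy endosperm of kernels at 6 days after pollination (DAP). The 10 genes were taken by their gene model identifiers, and each was present among the 110028 gene models listed for every library. They are 3 cell wall invertases (mn1, GRMZM2G119689; incw1, GRMZM2G139300; incw3, GRMZM2G123633), 2 vacuolar invertases (ivr1, GRMZM2G394450; ivr2, GRMZM2G089836), 3 sucrose synthases (sh1, GRMZM2G089713; sus1, GRMZM2G152908; sus2, GRMZM2G318780) and 2 fructokinases (frk1, GRMZM2G086845; frk2, GRMZM2G051677). Every library came from the inbred line B73, with kernels of self-pollinated greenhouse plants. Tissue was collected by laser-capture microdissection, and its poly-A RNA was amplified before sequencing. The 4 libraries are numbered replicates of 1 group, so the data hold no treatment, genotype or stage to compare. The labels do not say that the replicates came from separate plants, ears or kernels. SDs and p-values therefore cover only the spread among the libraries, and that spread may be technical. Where a gene's reads were tested across libraries, the p-value sets that spread against counting error only.

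The developing kernel is fed with sucrose from the mother plant, and 2 kinds of enzyme can open the sucrose molecule. Invertases hydrolyse it irreversibly to glucose and fructose, outside the cell in the case of cell wall invertases and inside the vacuole in the case of vacuolar invertases. Sucrose synthases cleave it reversibly with UDP in the cytosol, giving fructose and UDP-glucose, a precursor of starch and cell wall polysaccharides. Fructokinases phosphorylate the fructose that both reactions release, so that it can enter glycolysis or hexose phosphate pools. In maize kernels, cell wall invertase of the mn1 locus is known from the basal endosperm transfer layer, and the sucrose synthase of sh1 from the starch-filling endosperm.

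All levels are in RPM, which is a gene's reads per 1000000 reads on gene models of the same library. Library totals were 3432952, 5428283, 4754684 and 5477465 reads in replicates 1 to 4. No transcript lengths were used, so any difference between genes below is a difference in read share and not in the number of transcript molecules. As background, fructokinases are shorter proteins than invertases, and invertases are shorter than sucrose synthases. Of the matched genes listed here under starchy endosperm, fl3, nkd1 and nkd2 were the highest. On the same list wx1, o2 and gz50 were at 0 in every library and sh2, bt1 and bt2 averaged under 1 RPM. Markers of the transfer layer had a summed level of 302, 612, 511 and 67.5 RPM over 8 matched genes in replicates 1 to 4. Most of it came from betl2 in replicates 1 to 3, whereas betl2 and ebe1 had 27.2 RPM each in replicate 4. Markers of the embryo-surrounding region followed with 29.4, 33.9, 22.9 and 1.64 RPM over 3 genes, whereas those of the embryo summed to 25.3, 26.2, 31.5 and 45.5 RPM over 6 genes, 3 of them (glb2, wox5b and lec1) at 0. Genes listed here as aleurone markers summed to 109 to 135 RPM over 6 genes. All of this sum came from sal1, dek1, cr4 and vpp1, and c1 and r1 were at 0 in every library. The 4 maternal and green tissue markers summed to at most 1.46 RPM, with bde1 and rbcs1 at 0.

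Most reads of the 10 genes came from a single fructokinase and a single vacuolar invertase. The genes together had 72.2, 55.6, 57.8 and 48.9 RPM in replicates 1 to 4, a mean of 58.7 ± 9.81 RPM (SD, n = 4). Of their 1093 reads over all libraries, frk2 and ivr2 supplied 89.4%. Only these 2 genes reached 1 RPM in every library, and 4 of the 10 averaged 1 RPM or more, against a background of 56.3% of the 37643 models with any read and 19.3% of all models. The median of the 10 mean levels was 0.677 RPM, beside a median of 1.80 RPM over the models with any read. Since these are bulk libraries, fewer cells expressing a gene and less RNA of it per cell cannot be told apart.

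**Figure D1:**
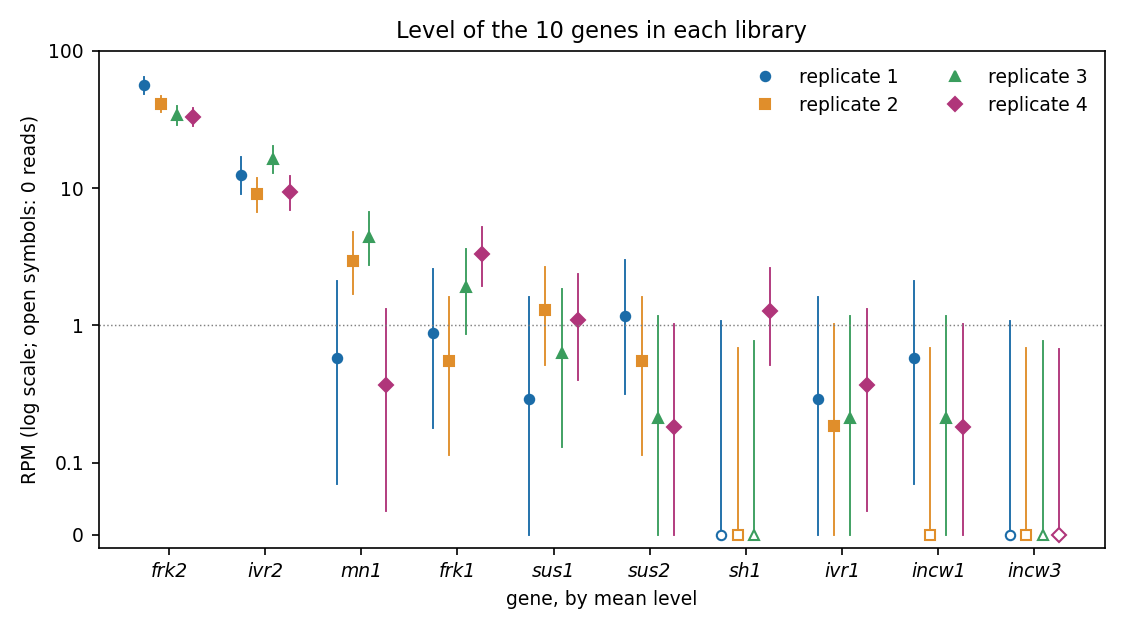
Level of each of the 10 genes (x axis, ordered by mean) in RPM (y axis, log scale, with 0 reads drawn as open symbols at the base) in the 4 libraries, with exact 95% Poisson intervals as vertical lines that are clipped at the base. The dotted line marks 1 RPM; frk2 lies at 32.9 to 55.9 RPM and ivr2 at 9.03 to 16.2 RPM, and the other 8 genes lie at or below 4.42 RPM in every library.

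The fructokinase frk2 was the highest of the 10 genes in read share. It had 192, 223, 162 and 180 reads, or 55.9, 41.1, 34.1 and 32.9 RPM, in replicates 1 to 4. Replicate 1 was the highest, and its 95% Poisson interval of 48.3 to 64.4 RPM did not overlap those of the other libraries, the nearest of which was 35.9 to 46.8 RPM in replicate 2. The reads differed between libraries beyond counting error (chi-square test across 24154 models, adjusted p = 0.00011), with a ratio of 1.70 between the highest and the lowest library. The same test without replicate 1 gave an adjusted p of 0.396, so the call rests on that library. The mean level of frk2 stood above that of 88.0% of the models with any read.

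The second fructokinase, frk1, was low, and its highest library was not that of frk2. It had 3, 3, 9 and 18 reads, or 0.874, 0.553, 1.89 and 3.29 RPM, in replicates 1 to 4. Replicates 3 and 4 were above replicates 1 and 2, and replicate 4 was the highest, with a Poisson interval of 1.95 to 5.19 RPM against 0.114 to 1.62 RPM in replicate 2. These reads also differed between libraries (exact multinomial test, adjusted p = 0.0052). That call was lost without replicate 2 (exact multinomial adjusted p = 0.0706) and without replicate 4 (exact multinomial adjusted p = 0.297).

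The balance between the 2 fructokinases varied over the libraries. The frk1 share of fructokinase reads was 1.54%, 1.33%, 5.26% and 9.09% in replicates 1 to 4. Exact 95% binomial (Clopper-Pearson) intervals were 0.275% to 3.83% in replicate 2 and 5.48% to 14.0% in replicate 4, which do not overlap. Over all libraries the ratio of frk2 to frk1 reads was 22.9 (95% interval 16.2 to 33.6). Replicate 4, where the frk1 share was highest, also had the lowest summed transfer layer and embryo-surrounding markers and the highest summed embryo markers. The embryo sum there came from ole1 and wox2a alone, and ebe1 of the transfer layer list was highest there. The part of these cell types in the frk1 level was not tested.

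Among the vacuolar invertases examined, ivr2, which encodes a soluble acid invertase, carried nearly all reads. It had 43, 49, 77 and 51 reads, or 12.5, 9.03, 16.2 and 9.31 RPM, in replicates 1 to 4. Replicate 3 was the highest, and its Poisson interval of 12.8 to 20.2 RPM overlapped that of replicate 1 (9.06 to 16.9 RPM) but not those of replicates 2 (6.68 to 11.9 RPM) and 4 (6.93 to 12.2 RPM). The spread exceeded counting error (chi-square test, adjusted p = 0.015), with a ratio of 1.79 between the highest and the lowest library, but not without replicate 3 (chi-square adjusted p = 0.421) or without replicate 2 (chi-square adjusted p = 0.0823).

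The other vacuolar invertase, ivr1, had 1, 1, 1 and 2 reads in replicates 1 to 4. Each of these counts is under the 3 reads used here as a detection floor for single libraries, which stand for 0.874, 0.553, 0.631 and 0.548 RPM. Pooled over all libraries ivr1 stood at 0.262 RPM (exact 95% Poisson interval 0.0850 to 0.611). The pooled ratio of ivr2 to ivr1 reads was 44.0 (95% interval 18.6 to 137).

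Reads of the cell wall invertases examined came almost only from mn1, and its level varied most widely among the members with reads in all libraries. This gene had 2, 16, 21 and 2 reads in replicates 1 to 4. The highest library, replicate 3, had 4.42 RPM (95% Poisson interval 2.73 to 6.75) and the lowest, replicate 4, 0.365 RPM (0.0442 to 1.32), a ratio of 12.1. Replicates 2 and 3 lay above replicates 1 and 4, and both low counts were under the floor of 3 reads. The reads differed between libraries (exact multinomial test, adjusted p = 0.00024), and the call held without any single library, with adjusted p from 3.8e-05 to 0.037.

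Markers of the basal transfer layer, the cell layer for which mn1 is known, were measured in the same libraries. Of the 8 matched markers, 7 differed between libraries in the same read-level test, against 34.4% of all models tested. Without replicate 4 the share of all models was 13.9%, and the markers called were not counted in that setting. Replicate 4 was the lowest library for 7 of the 8 and the highest for ebe1, at 27.2 RPM against 22.1 to 26.2 RPM. In that library ebe1 supplied 149 of the 370 marker reads, as many as betl2. None was at 0 in all libraries, and betl3 was at 0 in replicate 4. Relative to the reads of these markers, mn1 had 1.93, 4.82, 8.64 and 5.41 reads per 1000 marker reads in replicates 1 to 4. The Poisson intervals of these ratios all overlapped, from 0.234 to 6.97 in replicate 1 and from 5.35 to 13.2 in replicate 3. Replicates 1 and 4 held 2 mn1 reads each, so the intervals are wide, and their overlap does not show that the ratios are equal. These intervals also take the marker reads as fixed. For frk1 the same ratio was 0.904 in replicate 2 and 48.6 in replicate 4. With marker reads lowest in replicate 4 and mn1 also low in replicate 1, the part of transfer layer cells in the mn1 level was not tested.

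**Figure D2:**
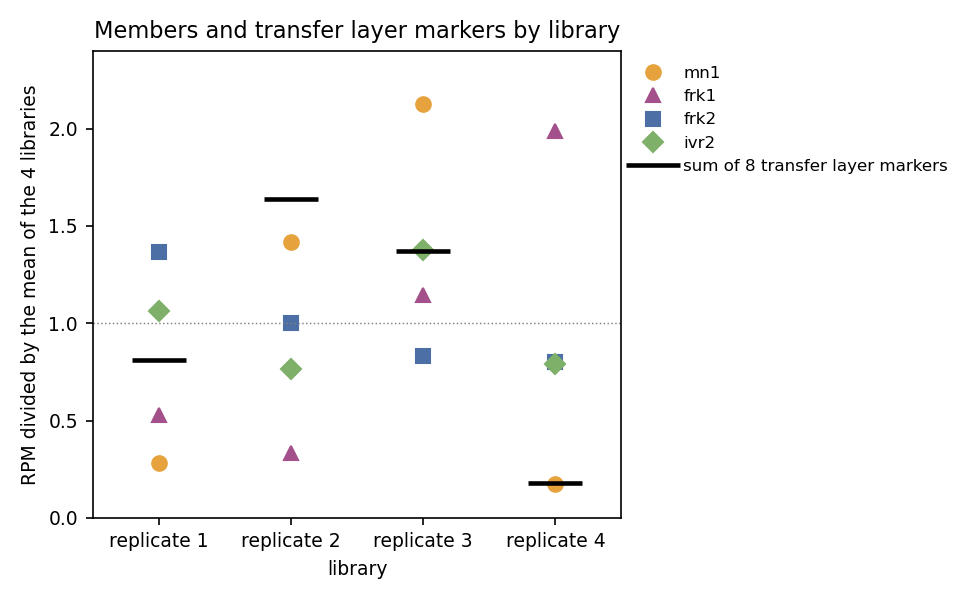
RPM of mn1, frk1, frk2 and ivr2 and the summed RPM of 8 transfer layer markers (black bars), each divided by its own mean over the 4 libraries (y axis, linear), by library (x axis). In replicate 4 the markers stood at 0.181 and mn1 at 0.176 of their means, while frk1 stood at 1.99. The markers and mn1 stood at 0.810 and 0.280 in replicate 1, at 1.64 and 1.42 in replicate 2 and at 1.37 and 2.13 in replicate 3.

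The other cell wall invertases among the 10 genes were near or at 0. The gene incw1 had 2, 0, 1 and 1 reads in replicates 1 to 4, which is 0.209 RPM over the pooled libraries (95% Poisson interval 0.0571 to 0.536). The gene incw3 had no read in any library. With 0 of 19093384 reads, the exact 95% Poisson upper limit for incw3 was 0.193 RPM, and the floor of 3 reads over all libraries stands for 0.157 RPM. In replicate 1 mn1 and incw1 had the same number of reads, so that the lead of mn1 rests on replicates 2 and 3.

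Transcripts of the 3 sucrose synthases examined were scarce at this stage, with 33 reads over all libraries. The gene sus1 had 1, 7, 3 and 6 reads in replicates 1 to 4, or 0.291, 1.29, 0.631 and 1.095 RPM. Its spread was within counting error (exact multinomial test, adjusted p = 0.522). The gene sus2 had 4, 3, 1 and 1 reads, or 1.17, 0.553, 0.210 and 0.183 RPM. With 9 reads in total sus2 fell under the minimum of 10 reads for the test. The pooled ratio of sus1 to sus2 reads was 1.89, with a 95% interval of 0.796 to 4.81 that includes 1.

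Shrunken1 (sh1), the main sucrose synthase of the filling endosperm, was seen in a single library. It had no read in replicates 1 to 3 and 7 reads in replicate 4. The level in replicate 4 was 1.28 RPM (95% Poisson interval 0.514 to 2.63). Over the 13615919 reads of replicates 1 to 3, the floor of 3 reads stands for 0.220 RPM. With 7 reads sh1 was under the minimum for the test, and where no minimum was set its adjusted p was 0.0032 (exact multinomial test over 37643 models). Replicate 4, with the highest sh1 and frk1, was also the highest for the zein gene gz27, at 3.83 RPM against 0.184 to 0.631 RPM in the other libraries. The same held for nkd1, at 105 RPM against 44.0 to 69.6 RPM, and for nkd2, at 27.2 RPM against 14.0 to 23.3 RPM. Other genes of the same starchy endosperm list were lowest there, namely fl3, its most abundant member, at 1400 RPM against 2107 to 2674 RPM, and bt2, at 0.183 RPM against 0.841 to 1.17 RPM. For bt2 this was 1 read against 4 to 5, a spread within counting error (exact multinomial test, adjusted p = 0.54).

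Summed by class over the 10 genes, the order was fructokinase, vacuolar invertase and then the 2 low classes. Fructokinase reads summed to 56.8, 41.6, 36.0 and 36.1 RPM in replicates 1 to 4. Vacuolar invertase reads summed to 12.8, 9.21, 16.4 and 9.68 RPM. Both classes kept their place in all 4 libraries, and fructokinases took 62.2% to 78.6% and vacuolar invertases 16.6% to 28.4% of the reads of the 10 genes. Cell wall invertases had 1.17, 2.95, 4.63 and 0.548 RPM, and sucrose synthases 1.46, 1.84, 0.841 and 2.56 RPM. The order of the low classes was not constant, since cell wall invertase lay above sucrose synthase in replicates 2 and 3 and below it in replicates 1 and 4.

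**Figure D3:**
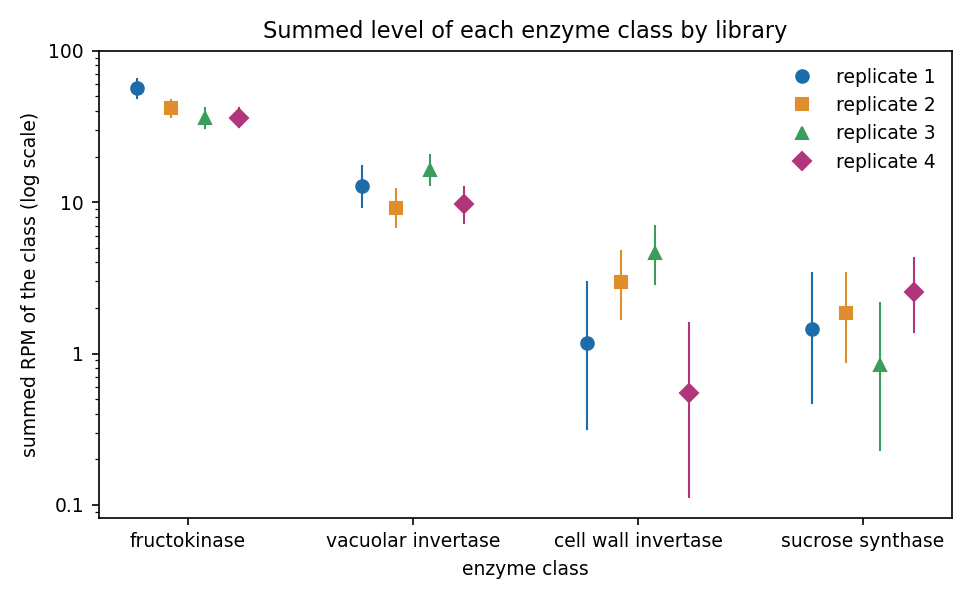
Summed RPM (y axis, log scale) of each enzyme class (x axis) in the 4 libraries, with exact 95% Poisson intervals as vertical lines. Fructokinases lie between 36.0 and 56.8 RPM, vacuolar invertases between 9.21 and 16.4 RPM, and the intervals of cell wall invertases and sucrose synthases overlap in every library but replicate 3.

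Within libraries, fructokinases exceeded vacuolar invertases by a mean difference of 1.80 ± 0.47 in log2(RPM + 0.5) (SD, n = 4, higher in 4 of 4 libraries). They exceeded cell wall invertases by 4.17 ± 1.14 and sucrose synthases by 4.35 ± 0.60, each in 4 of 4 libraries. Vacuolar invertases exceeded cell wall invertases by 2.37 ± 0.90 and sucrose synthases by 2.55 ± 0.85, again in 4 of 4 libraries. For each of these 5 differences the exact two-sided sign-flip permutation p was 0.125 (adjusted p = 0.179 over 10 differences). This is the smallest p that 4 libraries allow, so no difference could pass 0.05. In read counts alone the smallest fructokinase to vacuolar invertase ratio was 2.19 (95% interval 1.67 to 2.90), in replicate 3, and the largest 4.52 (3.31 to 6.27), in replicate 2.

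Cell wall invertase minus sucrose synthase averaged 0.18 ± 1.46 in log2(RPM + 0.5), with opposite signs between libraries (exact permutation p = 0.75, adjusted p = 0.75). The read ratio was 5.5 in replicate 3 (95% interval 1.87 to 22.0) and 0.214 in replicate 4 (0.0395 to 0.768). Intervals of both libraries lie on opposite sides of 1, whereas those of replicates 1 (0.159 to 3.72) and 2 (0.683 to 3.94) include it. Of the 14 sucrose synthase reads in replicate 4, 7 were of sh1, which had no read in the other libraries. With only the highest member of each class the mean difference was 0.66 (exact permutation p = 0.375). Without replicate 3 the mean difference was -0.41. The lower ratio thus coincided with the library of lowest transfer layer markers, at 67.5 RPM against 302 to 612 RPM in the others, and their part in it was not tested.

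**Figure D4:**
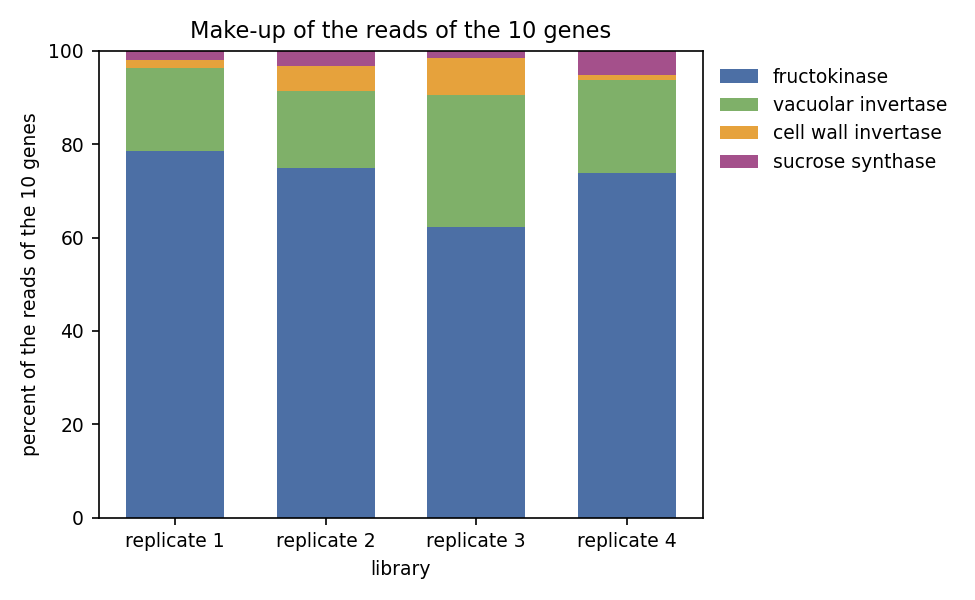
Percent of the reads of the 10 genes (y axis, from 0 to 100) that belong to each enzyme class, by library (x axis). Cell wall invertases take 8.0% in replicate 3 and 1.12% in replicate 4, while sucrose synthases take 1.45% in replicate 3 and 5.22% in replicate 4.

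Within classes, the widest differences were those between the fructokinases and between the vacuolar invertases. The difference frk2 minus frk1 averaged 4.41 ± 1.099 and ivr2 minus ivr1 3.97 ± 0.44 in log2(RPM + 0.5), each positive in 4 of 4 libraries. For both, the exact permutation p was 0.125 (adjusted p = 0.179). The difference mn1 minus incw1 averaged 1.48 ± 1.52 and was above 0 in 3 of 4 libraries, with no difference in replicate 1 (exact permutation p = 0.25, adjusted p = 0.312). The difference sus1 minus sus2 averaged 0.40 ± 1.01, above 0 in all libraries but replicate 1 (exact permutation p = 0.5, adjusted p = 0.556). It was 0.89 without replicate 1 and 0.12 without replicate 4. For genes with a few reads the pseudocount sets much of these values.

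**Figure D5:**
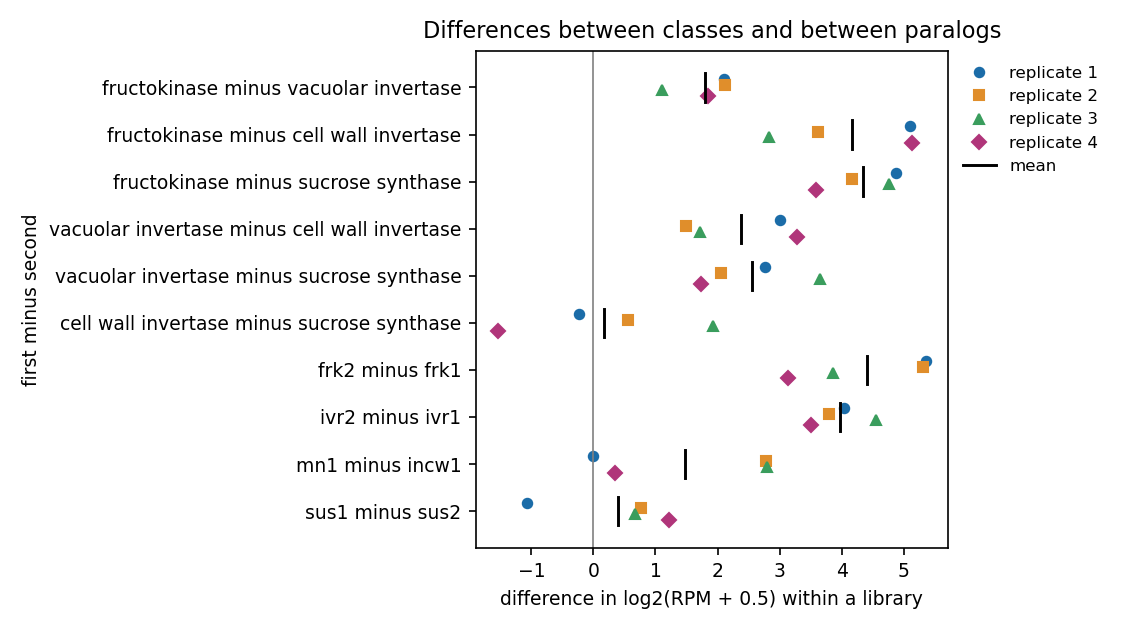
Within-library differences in log2(RPM + 0.5) (x axis) for 6 pairs of classes and 4 pairs of genes (y axis, first minus second), with 1 symbol per library and a black line at the mean. The pairs led by fructokinase, vacuolar invertase, frk2 and ivr2 lie right of 0 in every library, while cell wall invertase minus sucrose synthase runs from -1.54 to 1.93.

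In the order of mean read share, frk2 and ivr2 were separated from each other and from the rest by the spread between libraries. The lowest frk2 value of 32.9 RPM lay above the highest ivr2 value of 16.2 RPM, and the lowest ivr2 value of 9.03 RPM above the highest mn1 value of 4.42 RPM. From mn1 downward, through frk1, sus1, sus2, sh1, ivr1, incw1 and incw3, the ranges of each pair of neighbours overlapped. The mean of mn1, at 2.08 ± 1.95 RPM, and that of frk1, at 1.65 ± 1.23 RPM, were near the median model, as they exceeded 51.5% and 49.2% of the models with any read. Without replicate 3 the mean of mn1 was 1.30 RPM. The other 6 genes averaged 0 to 0.827 RPM.

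The read-level test across all models called 4 of the 5 members that had at least 10 reads, against 34.4% of the 24154 models tested. The 4 were frk2, ivr2, mn1 and frk1, and the other 5 genes had too few reads to be tested. The test compares these libraries and not conditions. Leaving out replicate 4 gave 3 called of 5 members against a background of 13.9%, and leaving out replicate 3 gave 3 of 5 against 33.9%. Leaving out replicate 1 gave 3 of 5 against 32.9%, and leaving out replicate 2 gave 2 of 5 against 30.5%. With no minimum count 5 of 9 members were called against 21.0%, and with edgeR's filterByExpr, which kept only frk2 and ivr2, both were called against 44.3%. On the log2 scale the SD over libraries was 0.35 for frk2 and 0.38 for ivr2, which is above that of 78.3% and 82.7% of the 11272 models with a mean of at least 10 RPM. This SD includes counting error, which is larger at low counts, and ivr2, with a mean of 11.8 RPM, lies near the 10 RPM limit. Neither gene shared its exact counts with another model.

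Other genes of sucrose and hexose metabolism were listed by symbol, and 7 of the 47 symbols matched a gene model. Not among the 7 were incw4 to incw8, ivr3 and sus3 to sus7, so the class sums cover only the 10 genes. The median mean level of the 7 was 23.2 RPM, and 6 of the 7 averaged 1 RPM or more. The highest were phi1, a glucose-6-phosphate isomerase, at 75.4 ± 9.39 RPM, the sucrose-phosphate phosphatases spp1 and spp2 at 44.0 ± 7.29 and 26.4 ± 2.95 RPM, and the sucrose transporter sut4 at 23.2 ± 3.43 RPM (SD, n = 4 each). The sucrose-phosphate synthase gene sps1, which acts in the step before these phosphatases, had 3.15 ± 0.883 RPM. Of the 7, 1 differed between libraries, against 34.4% of all models tested. This was spp1, with 35.2, 42.7, 45.0 and 52.9 RPM in replicates 1 to 4 (chi-square test, adjusted p = 3.3e-05). The lowest of the 7 was sut1, a sucrose transporter, with 0.291, 2.03, 0.631 and 0.548 RPM in replicates 1 to 4, at the level of the sucrose synthases.

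Genes whose levels over the 4 libraries were most like those of a member were sought among 3164 models that averaged 10 RPM or more and carried a name other than a locus number. Likeness was measured as the root mean square difference of log2(RPM + 0.5) centred on each gene's mean. With 4 libraries many genes lie close, so the values are a description. Closest to frk2 were GRMZM2G079109, known by a clone name, ipk1A and mbd105, at 0.06 to 0.07. Near ivr2 were GRMZM2G173597, known by a marker name, the gamma-tubulin gene TUBG2 and GRMZM2G150866, known by a clone name, at 0.04 to 0.08. For frk1 the nearest were GRMZM2G096365, known by a clone name, the response regulator gene crr5 and the actin gene Actin-7, at 0.12 to 0.16. For mn1 the 3 nearest carried only clone or marker names (GRMZM2G406552, GRMZM2G364145 and GRMZM2G029087) and lay farther off, at 0.56 to 0.61, beside a median of 1.06 over all candidates.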

How the data were processed

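Per the labels, poly-A RNA from laser-captured B73 endosperm was amplified and sequenced in 4 barcoded libraries. The authors deposited 1 scaled signal value per gene model and library. Each library sums to 4773346, with no division by length seen in the values. The submitters' processing notes name bedtools. Not given in the sources used here are the aligner, build, gene annotation, strandedness and handling of reads with several matches. Close paralogs and overlapping models could therefore share or lose reads.

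Every non-zero value was a whole multiple of the smallest one in its library, within 0.01 of a read, and was divided by it to recover reads. In replicate 3 this step is 1.00, close to the step of whole-number rounding, so counts are also given without it. Because the deposited unit is a signal and not counts, tests on recovered reads rest on this step. Names were taken from RefSeq's table of genes (Zm-B73-REFERENCE-NAM-5.0), of which no coordinates or lengths were used.

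Reads of each model were tested against TMM effective library sizes (edgeR 4.0.16, factors 0.927 to 1.03) by an exact multinomial test up to 50 reads in total and a chi-square test above, at a minimum of 10 reads and with Benjamini-Hochberg adjustment over all models at 0.05. The procedure was tested on simulated data. Classes and gene pairs were compared within libraries by an exact sign-flip permutation test (scipy 1.17.1) on log2(RPM + 0.5), adjusted over 10 differences. RPM was used because no protein sequences were at hand to divide by coding length. Intervals are exact 95% Poisson or Clopper-Pearson intervals and, like the floor of 3 reads, cover counting error only, because RNA was amplified and the labels mention no molecular identifiers. The read-level tests likewise treat each read as independent, so their p-values can be too small.

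The members, lists and tests were chosen with earlier results of these data known. Named genes are the 10 members, the 4 highest genes of the metabolism list and any of it that differed, the 3 highest of each marker list and the 3 models most like each member that averaged 1 RPM or more. Other genes named (markers at or near 0, vpp1, betl3, gz27, bt2, sps1, sut1) were chosen after their values were seen. Symbols that matched several models (esr1, glb1, ae1 and pbf1) were left out, as was mrp1, whose model could be another gene. Of the marker lists, the highest were betl2, betl10 and ebe1 (transfer layer), esr2, esr3 and esr6 (embryo-surrounding region), sal1, dek1 and cr4 (aleurone), ole1, wox2a and kn1 (embryo) and zag2 and zag1 (maternal tissue). Alternatives were other pseudocounts, scalings, filters and class summaries, and leaving out each library.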

Additional observations from a re-analysis of the deposited data

Results flagged for a closer look

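The level of sh1 in replicate 4, at 1.28 RPM from 7 reads, stood apart from the 0 reads of the other 3 libraries, and the gap took up the whole range of the group. Of 27 sets of 4 values examined, this was 1 that passed Dixon's 95% limit. Chance alone flags about 1 in 20 such sets where values are normally distributed, a rate that does not hold here. A gene with reads in 1 library and 0 in the others always passes, so the flag follows from the counts of 0.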

How the results depend on the processing

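The direction of all 6 class differences and 4 gene-pair differences was kept with pseudocounts of 0.1 and 1 and with TMM scaling, and that of the class differences also with the highest member or the mean of each class. Leaving out 1 library reversed only cell wall invertase minus sucrose synthase, which ran from -0.41 (without replicate 3) to 0.75. Members called as differing between libraries numbered 2 with edgeR's filterByExpr, which kept 2 of the 10, and 2 to 3 when a library was left out, against 4 as reported. Without a minimum count 5 of 9 were called, the fifth being sh1, against a background of 21.0%. Total reads, DESeq2 size factors and a chi-square test for every model left the number at 4. Over all models 3190 to 7744 were called when a library was left out, the lowest without replicate 4, against 8315. Dividing by coding length was not run, so read shares are the only scale. Depth limits the 8 genes with under 50 reads in total: their levels near or under 3 reads per library could not be ranked. The cause of these changes was not tested.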
